A study of Homo sapiens with 2 samples.

Results

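The Kruppel-like factors (KLFs) are zinc finger transcription factors, described here through the 10 genes KLF2, KLF3, KLF4, KLF5, KLF6, KLF7, KLF9, KLF10, KLF11 and KLF13. Members were taken by symbol, as every probe set that the platform annotation names for 1 of these genes, a rule that uses no measured value. Each had 1 probe set, so 10 of the 14884 named genes on the array were members. The 2 cultures profiled were of AsPC-1, an established line from human pancreatic adenocarcinoma, both grown in 3 dimensions under a collagen overlay and both for 24 h. The compressed culture was held under a compressive stress of 2.9 mmHg, and the uncompressed culture carried no such load. RNA of each went onto 1 GeneChip Human Gene 2.0 ST array, which reports a level per probe set as a log2 RMA signal.

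All KLFs end in a run of zinc-coordinating C2H2 fingers that bind GC boxes and CACCC elements in DNA, sites they share with the related SP factors. Their other parts differ and set the partners they recruit. KLF2, KLF4, KLF5, KLF6 and KLF7 belong to a branch of mostly activating proteins, KLF3 belongs to a branch that binds the corepressor CtBP, and KLF9, KLF10, KLF11 and KLF13 carry a motif that binds the corepressor Sin3. In endothelium, KLF2 and KLF4 are known as genes induced by steady fluid shear through the kinase ERK5 and MEF2 factors. In gut and pancreatic epithelium, KLF5 is known for supporting proliferation and KLF4 for differentiation. Several KLF genes, KLF4, KLF6 and KLF10 among them, can be induced within minutes to hours by growth factors or stress.

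The comparison of compressed with uncompressed cells asked how load changes transcript levels in this line. KLF7 and KLF6 were higher in the compressed culture, by 2.39-fold and 2.11-fold. The other 8 members differed by at most 0.39 on the log2 scale (1.31-fold). No member was lower by 1.5-fold. With a single array in each group no spread between cultures is known, so no test was made and no p-value is given. Each difference is the log2 level in the compressed culture minus that in the uncompressed culture, and "higher" and "lower" describe these 2 arrays alone. A fixed size of 1.5-fold (0.58 on the log2 scale) was used for counting, over genes whose mean level was at or above the median gene, 4.79, called kept genes below. That floor kept 7442 genes and 9 of the 10 members, all but KLF9. Each of the 9 was at or above the floor on both arrays, so none was kept through 1 array alone. In RNA of a whole culture, fewer cells expressing a gene and less RNA per cell cannot be told apart.

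Of the 9 kept members, 2 were at least 1.5-fold higher, where 3.95% of kept genes were, and 0 were at least 1.5-fold lower, where 1.12% were. At a size of 2-fold the same members, KLF6 and KLF7, were counted as higher, against 0.954% of kept genes, and 0 members as lower, against 0.0806%. At a smaller size of 0.32 on the log2 scale, KLF3 joined them, giving 3 members higher against 13.5% of kept genes, and 0 lower against 8.28%. The median difference of the 9 kept members was 0.17, and 0.16 with KLF9 included. Over all kept genes the median was 0.01, with the middle 50% between -0.15 and 0.18. Without KLF6 and KLF7, a subset chosen after their values were seen, the other 8 members ran from -0.27 to 0.39 with a median of 0.11.

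**Figure D1:**
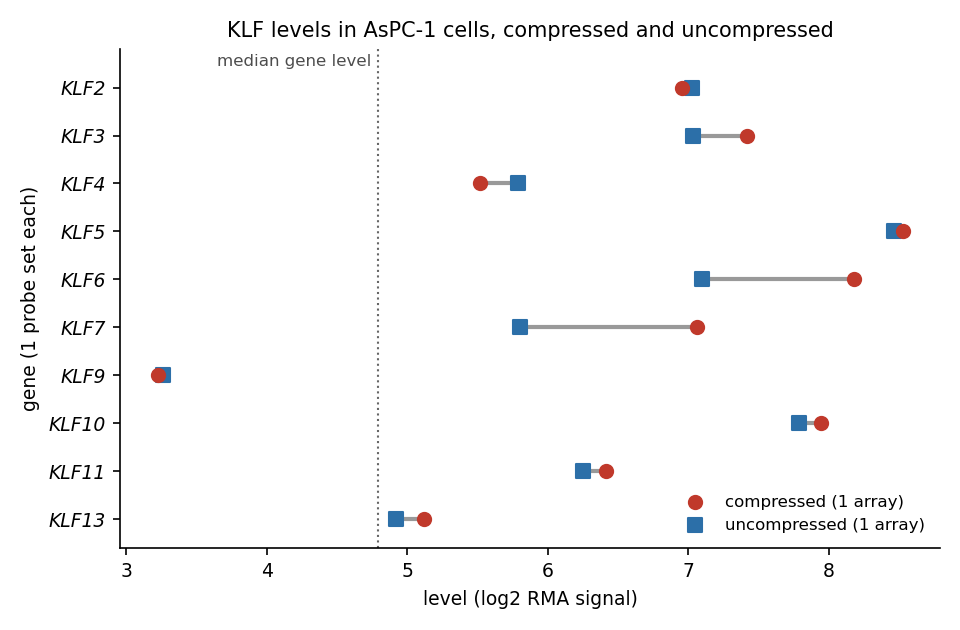
Level of each KLF member (log2 RMA signal, horizontal axis) in the compressed (red circles) and uncompressed (blue squares) culture, 1 array each, with a dotted line at the median gene level of 4.79. KLF6 and KLF7 show the widest gaps between the arrays, and KLF9 lies left of the line on both. Levels of different genes come from different probes and have no common scale.

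KLF7 read 7.06 in the compressed and 5.80 in the uncompressed culture, a difference of 1.26. KLF7 was first described as a KLF made in many tissues and is known for its part in neuronal outgrowth. Only 34 of the 7442 kept genes, KLF7 itself included, had a difference at or above this one, which puts it at the 99.5th percentile. Signal and noise can depend on level, so each member was also set against kept genes whose mean level lay within 0.5 of its own. Of the 2058 such genes for KLF7, 11 were at or above its difference, KLF7 included. In the GRCh38.p14 annotation of RefSeq the microRNA genes MIR2355 and MIR7845 lie within KLF7. MIR2355 had a named probe set, at 1.55 in the compressed and 1.36 in the uncompressed culture, both under the floor.

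KLF6 read 8.18 in the compressed and 7.10 in the uncompressed culture, a difference of 1.08. KLF6, the closest relative of KLF7 within the family, was found as a protein that binds a core promoter element and is often described as a tumour suppressor. Its difference was at the 99.2nd percentile of kept genes, with 57 genes at or above it. Among 1181 kept genes of a like level, 10 were at or above it, KLF6 included. No other RefSeq gene overlaps KLF6 in that annotation.

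A measure of spread between probe sets of the same gene came from 135 protein-coding genes that had exactly 2 probe sets, both above the floor and with different values. The gaps between their paired differences gave an SD of 0.188 for the difference of a single probe set. The differences of KLF6 and KLF7 were larger than this SD by far, KLF3 and KLF4 lay beyond it by less, KLF13 lay just above it, and those of the other 5 members were below it. This SD holds no variation between cultures that moves both probe sets of a gene alike. Whether paired probe sets read the same transcripts was not tested, and no member had a second probe set to set beside the first.

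**Figure D2:**
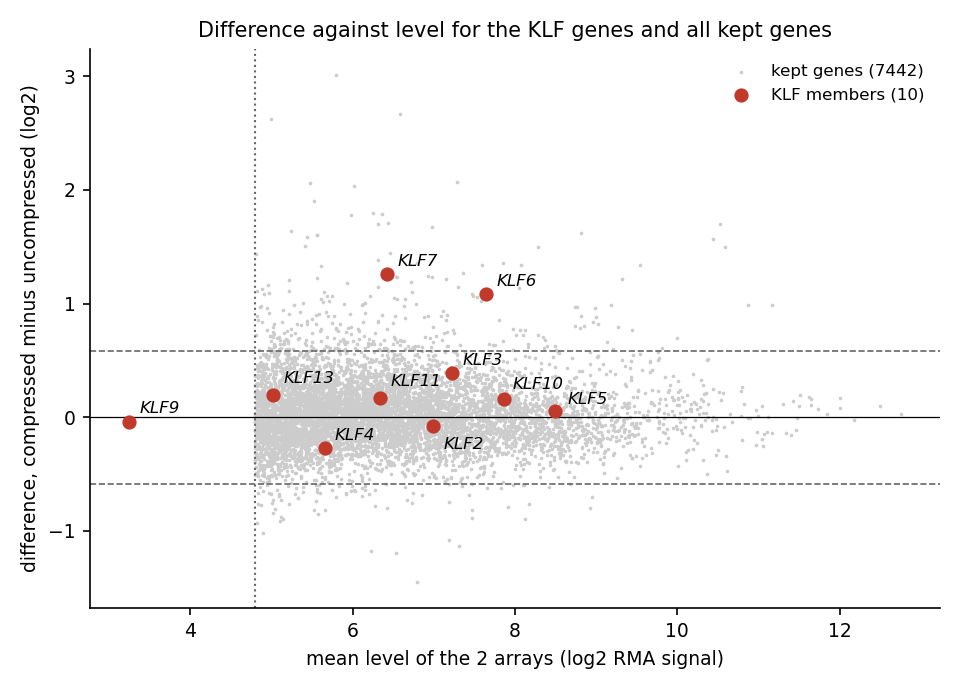
Difference, compressed minus uncompressed (log2, vertical axis), against mean level of the 2 arrays (log2 RMA signal, horizontal axis) for 7442 kept genes (grey) and the 10 KLF members (red), with dashed lines at 1.5-fold in either direction and a dotted line at the floor of 4.79. KLF7 at 1.26 and KLF6 at 1.08 lie above the upper dashed line, and the other 8 members lie between the lines.

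The start regions of KLF6 and KLF7 are shown because these genes differed most, beside those of KLF2 and KLF4, members of the same branch that were not higher. The windows hold 250 bases before and 50 after a RefSeq transcript start (GRCh38.p14), read 5′ to 3′ on the gene's strand, with GC boxes (GGGCGG on either strand) in capitals. KLF6 lies at chr10:3785160-3785459, minus strand, and KLF7 at chr2:207166807-207167106, minus strand, 1 of its 4 windows and the only one with GC boxes. KLF2 lies at chr19:16324576-16324875, plus strand, and KLF4 at chr9:107489720-107490019, minus strand.
KLF6: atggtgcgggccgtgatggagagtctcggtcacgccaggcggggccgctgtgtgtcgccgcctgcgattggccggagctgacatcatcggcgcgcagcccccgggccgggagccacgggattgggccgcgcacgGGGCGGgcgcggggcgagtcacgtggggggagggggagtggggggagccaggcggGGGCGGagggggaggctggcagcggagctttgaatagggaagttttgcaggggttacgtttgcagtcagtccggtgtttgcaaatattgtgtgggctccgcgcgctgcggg
KLF7: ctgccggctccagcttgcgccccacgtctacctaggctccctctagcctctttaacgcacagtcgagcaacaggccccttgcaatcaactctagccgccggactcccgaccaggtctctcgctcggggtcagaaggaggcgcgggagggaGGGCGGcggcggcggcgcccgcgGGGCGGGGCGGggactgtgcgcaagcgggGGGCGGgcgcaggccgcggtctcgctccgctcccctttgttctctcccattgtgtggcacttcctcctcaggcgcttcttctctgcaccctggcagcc
KLF2: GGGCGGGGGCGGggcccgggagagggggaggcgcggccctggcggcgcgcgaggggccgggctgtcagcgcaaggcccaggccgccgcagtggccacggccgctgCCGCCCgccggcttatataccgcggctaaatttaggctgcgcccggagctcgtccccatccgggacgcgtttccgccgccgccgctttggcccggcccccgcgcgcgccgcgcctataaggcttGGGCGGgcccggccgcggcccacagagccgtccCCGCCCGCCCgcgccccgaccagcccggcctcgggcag
KLF4: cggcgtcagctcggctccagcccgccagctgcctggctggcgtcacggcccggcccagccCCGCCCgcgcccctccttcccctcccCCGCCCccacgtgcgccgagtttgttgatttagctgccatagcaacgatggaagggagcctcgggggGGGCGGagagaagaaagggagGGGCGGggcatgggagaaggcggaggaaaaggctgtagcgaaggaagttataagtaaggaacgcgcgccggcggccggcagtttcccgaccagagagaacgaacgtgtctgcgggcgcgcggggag

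The KLF6 window held 2 GC boxes and the KLF7 window 4, against 6 in KLF2 and 4 in KLF4. Their GC contents were 70.7%, 70.0%, 80.7% and 69.0% in that order, and the median over 35116 windows of all genes was 58.7%. GC boxes were found in windows of members that were higher and of members that were not. A second KLF7 window, at chr2:207167197-207167496 on the minus strand, had a GC content of 42.7%. It is shown because it held the 1 CArG box among the members' windows that were searched. A CArG box is the form of site bound by the serum response factor SRF. Here it is in capitals and starts at position -62 from the transcript start.
KLF7, second window: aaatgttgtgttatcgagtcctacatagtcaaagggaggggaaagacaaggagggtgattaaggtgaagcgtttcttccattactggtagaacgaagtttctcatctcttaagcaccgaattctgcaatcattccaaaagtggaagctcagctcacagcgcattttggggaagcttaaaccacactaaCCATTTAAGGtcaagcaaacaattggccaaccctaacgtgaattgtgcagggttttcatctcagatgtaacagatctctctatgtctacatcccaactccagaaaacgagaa

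In all, 13 windows of 8 members were searched for 12 motifs on both strands. Member windows on chromosome 8 were left out, so KLF10 was not searched, and KLF3 had no window in the RefSeq table. Across all 35116 windows the CArG box was found in 1.29%. The GC box was found in 8 of the 13 windows, against 45.0% of all windows. Those 8 windows belonged to 7 of 8 members, and no share over all genes was computed. The letters CACCC were found in 7 windows of 4 members, against 59.9%, and were absent from the KLF6, KLF2 and KLF4 windows. The E-box CACGTG was found in 1 window each of KLF4, KLF6, KLF7 and KLF11, against 7.26%. The cyclic AMP response element TGACGTCA was found in 1 window, of KLF11, against 1.85%, and its core TGACG, which lies inside it, in 4 windows against 24.6%. CCAAT was found in 6 windows against 34.6%, TATAAA in 1 window, of KLF5, against 11.5%, and the hormone receptor element AGAACA in 2 windows against 14.8%. The AP-1 site TGACTCA (4.95% of all windows), the EGR site GCGTGGGCG (0.795%) and the ETS site CCGGAAG (10.3%) were found in 0 of the 13. A match describes the letters of a window, and which start these cells use was not measured.

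Of the other members in the activating branch, KLF5 and KLF2 were nearly level and KLF4 was slightly lower. KLF5, at 8.52 in the compressed and 8.47 in the uncompressed culture, differed by 0.06. KLF2 read 6.95 in the compressed and 7.03 in the uncompressed culture, a difference of -0.08. KLF4 read 5.52 in the compressed and 5.79 in the uncompressed culture, a difference of -0.27 at the 11.5th percentile of kept genes. The shear-responsive pair, KLF2 and KLF4, thus was not higher as KLF6 and KLF7 were. The KLF2 difference was below the SD of 0.188 for a single probe set, and neither gene was lower by 1.5-fold. The 5 members of this branch thus spanned -0.27 to 1.26, the whole range of the 10 members, with a median of 0.06.

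KLF3, a repressor known from blood and fat cells that works through CtBP, read 7.42 in the compressed and 7.03 in the uncompressed culture. Its difference of 0.39 was the third largest of the members and lay at the 90.2nd percentile of kept genes, under the 1.5-fold size. KLF3-AS1, the antisense RNA gene that overlaps KLF3 in the annotation, had the same value on both arrays, 3.65, under the floor, where 555 of 7442 genes had equal values.

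The Sin3-binding members with a kept level differed by similar small amounts. KLF10 and KLF11, both first described as genes induced by TGF-beta, differed by 0.16 and 0.17. KLF10 read 7.94 in the compressed and 7.79 in the uncompressed culture, and KLF11 read 6.42 in the compressed and 6.25 in the uncompressed culture. KLF13, known as a factor for the chemokine gene CCL5 in T cells, read 5.12 in the compressed and 4.92 in the uncompressed culture, a difference of 0.19. These 3 lay between the 71.6th and the 76.0th percentile of kept genes, inside the middle of the distribution or just above it. KLF9, a target of glucocorticoid and thyroid hormone receptors, read 3.22 in the compressed and 3.26 in the uncompressed culture. Its difference of -0.04 became 0.03 after repeated quantile normalization, and a level under the floor may not be above background.

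Named probe sets were present for 7 other KLF genes and 9 SP genes, and 0 of these 16 passed 1.5-fold in either direction. Among the KLF genes kept, KLF16 differed by 0.34, the erythroid factor KLF1 by 0.09 and KLF14 by -0.09. The CtBP-binding relatives of KLF3, KLF8 at -0.34 and KLF12 at -0.36, were under the floor, as were KLF15 at -0.47 and KLF17 at -0.32. All 4 of these were negative. Over all genes under the floor the median difference was -0.06. Of the SP genes kept, the broadly expressed SP1 differed by 0.31, SP2 by 0.20, SP3 by 0.20, SP4 by 0.33, SP5 by -0.15 and SP6 by -0.04. SP7, SP8 and SP9 were under the floor and differed by -0.08, -0.36 and -0.28. Of the 6 kept SP genes 4 were positive and 2 negative, with a median of 0.20. Over all 9 the median was -0.04, so its sign depended on whether genes under the floor were counted. Over the 17 named KLF genes 9 had a positive and 8 a negative difference. Among the 12 kept KLF genes 9 were positive and 3 negative, where 3777 of all 7442 kept genes were positive and 3483 negative. Of all genes under the floor 2813 were positive and 4074 negative.

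**Figure D3:**
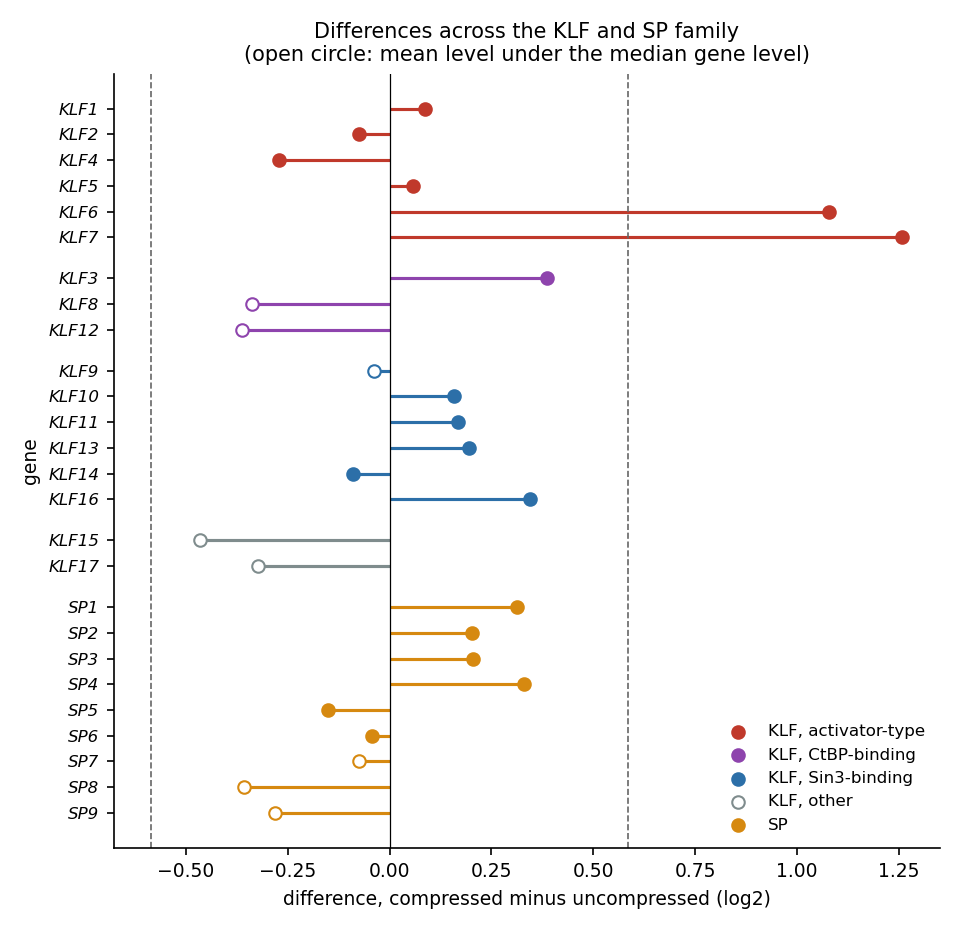
Difference, compressed minus uncompressed (log2, horizontal axis), for 17 KLF and 9 SP genes, coloured by branch, with open circles for genes under the median gene level and dashed lines at 1.5-fold. KLF6 and KLF7 pass the right dashed line, and the other genes lie between the dashed lines.

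By a rule on size alone, the 3 kept protein-coding genes nearest to KLF7 in difference were HMGCS1, which encodes a cholesterol synthesis enzyme, at 1.27, CAPRIN2 at 1.245 and ACSS2, which encodes the cytosolic acetyl-CoA synthetase, at 1.24. Likeness here is the gap between differences over 2 arrays, at most 0.0224 for these genes, and carries nothing more. The immediate-early gene DUSP1, described with the glucocorticoid list below, had a larger difference than any KLF gene.

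Genes known to act upstream of KLF genes were looked at next. In the ERK5 and MEF2 list, which drives KLF2 and KLF4 in endothelium, 5 of 8 genes were kept. Their median was 0.29, and 1 of them passed 1.5-fold upward and 0 downward. The higher one was MEF2D, at 8.19 in the compressed and 7.52 in the uncompressed culture (1.59-fold). MEF2C, well under the floor, read 3.06 in the compressed and 2.45 in the uncompressed culture, and its difference of 0.61 was 0.20 over the mean of its 2 probe sets. MAPK7, the gene of ERK5 itself, differed by -0.23. Of SRF and its cofactors 3 of 7 were kept and 0 passed, with SRF at 0.29 and MRTFA at 0.19. Of 14 genes listed for TGF-beta and SMAD, a pathway that induces KLF10 and KLF11, 5 were kept and 0 passed. That count rests on the floor, since SMAD3, which carries TGF-beta signals to the nucleus, read 5.08 in the compressed and 4.47 in the uncompressed culture (1.52-fold) with a mean just below it. SMAD2 differed by 0.31 and SKI, a corepressor of SMAD proteins, by 0.25. The list mixes genes that carry the signal with genes that oppose it, so its count gives no direction for the pathway.

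In the list of glucocorticoid-responsive genes, a group that KLF9 belongs to, 5 of 10 were kept and 2 were higher. DUSP1, a MAP kinase phosphatase, read 8.31 in the compressed and 6.25 in the uncompressed culture (4.19-fold), and ERRFI1, an inhibitor of the EGF receptor, read 9.67 in the compressed and 8.69 in the uncompressed culture (1.98-fold). Both genes also respond to growth factors. FKBP5, a common readout of glucocorticoid receptor activity, differed by -0.23. It was the 1 negative gene among the 5 kept, where 4 were positive, and the median of the 5 was 0.17. Of 18 circadian clock genes, through which KLF9 and KLF10 can cycle, 9 were kept and PER3 alone passed, at 6.19 in the compressed and 5.60 in the uncompressed culture. Its difference of 0.59 was at the edge of the size rule and fell short of it under each of the 3 alternatives that change the values of a single probe set, at 0.56 after loess correction, 0.582 after median centring (the size being 0.585) and 0.53 after repeated quantile normalization. The clock list's median was 0.09.

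Genes of proteins that KLFs bind, or that turn KLFs over, were read next. Of 14 corepressor and coactivator genes 10 were kept and 0 passed, with a median of 0.01 that ran from -0.04 to 0.09 over the alternatives. CREBBP, a histone acetyltransferase gene, differed by 0.53 and RBBP4, of the histone deacetylase complexes, by -0.30. The CtBP gene CTBP1 and the Sin3 gene SIN3A, read because KLF3 and the Sin3-binding members recruit their products, differed by -0.04 and 0.06. In the list of ubiquitin ligases and related enzymes that control KLF protein turnover, 6 of 10 were kept and 0 passed. That count rests on the floor, since the atrophy-linked ligase gene FBXO32 was under it by its mean, though above it in the compressed culture. FBXO32 read 5.15 in the compressed and 4.21 in the uncompressed culture (1.91-fold). ITCH differed by 0.39 and SMURF1 by 0.38, and WWP1, a ligase for KLF2 and KLF5, by 0.04.

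Genes reported as KLF targets did not share a direction. All 9 genes of the KLF5 list were kept. Their median was 0.08, and 2 passed 1.5-fold upward and 0 downward. FGFBP1, which encodes a carrier of fibroblast growth factors, read 7.17 in the compressed and 6.13 in the uncompressed culture (2.05-fold), and EGFR read 9.44 in the compressed and 8.62 in the uncompressed culture (1.76-fold). CDK1 and CCNB1, cell cycle genes named after their values were seen, each differed by -0.53. Of the KLF6 list only 2 of 11 genes were kept, ENG at 0.08 and MMP14, with the same value on both arrays. The largest difference in that list was of a gene just under the floor by its mean, the stress-induced factor ATF3, at 5.207 in the compressed and 4.198 in the uncompressed culture (2.01-fold). Of the KLF2 and KLF4 list 2 of 12 were kept, THBD, the thrombomodulin gene, at 0.45 and NOS3 at -0.16. The last 2 lists hold too few kept genes to describe targets of these factors.

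In the list of epithelial transcription factors that work beside KLF4 and KLF5, 6 of 13 genes were kept and 0 passed 1.5-fold. CDX2, an intestinal factor, differed by -0.35 and GATA6 by -0.23, and 4 of the 6 were negative, with a median of -0.16.

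**Figure D4:**
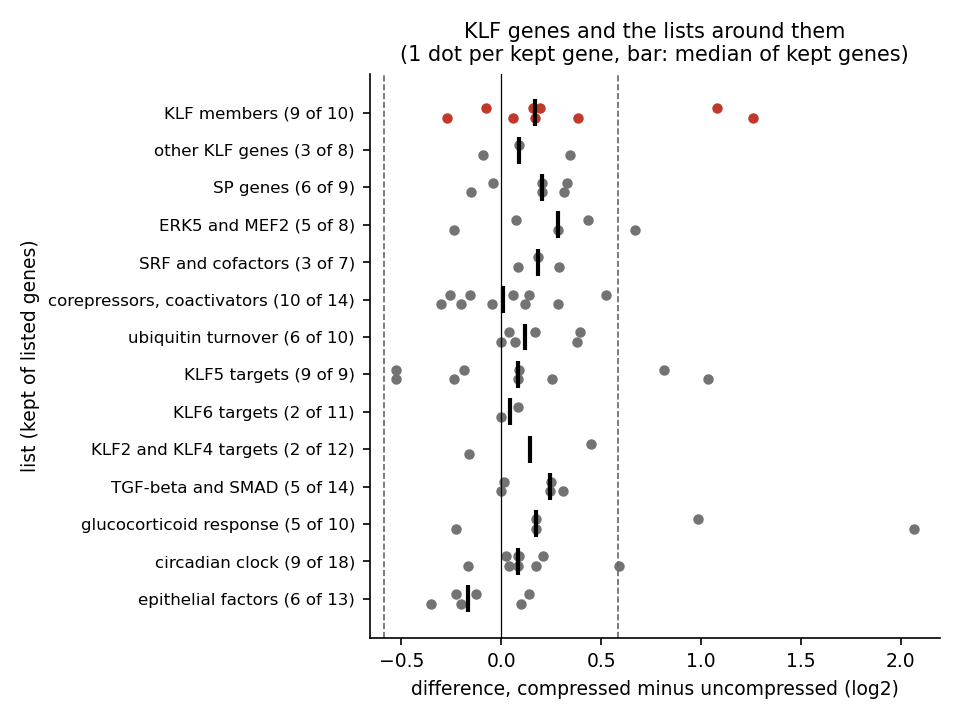
Difference, compressed minus uncompressed (log2, horizontal axis), for each kept gene (dots) of the KLF members and of the lists around them, with a bar at each list's median and dashed lines at 1.5-fold. The KLF members run from -0.27 to 1.26 around a median of 0.17, and the rightmost dot is DUSP1 at 2.07.

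As to the label, AsPC-1 is an epithelial line, and of 10 named pancreatic epithelial markers 7 were kept. KRT18, KRT19, EPCAM and CEACAM6 read between 10.43 and 11.71 in the compressed and between 10.77 and 11.54 in the uncompressed culture. KRT8 read 6.21 in the compressed and 6.13 in the uncompressed culture, and CEACAM5 read 5.51 and 5.45 in that order. KRT7 and S100P were under the floor on both arrays, and CLDN4 was under it by its mean. TSPAN8 was 1.73-fold lower in the compressed culture. Markers of other cell types were named for 2 of 9 fibroblast, 5 of 7 endothelial and 2 of 8 leukocyte genes. Of these, LUM, CLDN5 and CD68 were kept. LUM read 9.39 in the compressed and 9.75 in the uncompressed culture. DCN, the other fibroblast marker named, read 1.82 in the compressed and 1.79 in the uncompressed culture, under the floor. CLDN5 read 5.15 in the compressed and 5.22 in the uncompressed culture. The other endothelial markers named, PECAM1, VWF, KDR and ERG, were under the floor on both arrays. CD68, a lysosomal membrane protein gene, read 9.26 in the compressed and 8.45 in the uncompressed culture, and CD14, the other leukocyte marker named, read 3.71 in the compressed and 3.65 in the uncompressed culture. CD68 thus passed 1.5-fold (1.75-fold) and CD14 was under the floor on both arrays, and the part of other cell types in the KLF differences was not tested.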

How the data were processed

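Per the submitters' processing notes, the deposited log2 values are the authors' RMA output, with the Transcriptome Analysis Console as the other tool named. Versions and build were not given in the sources used here. RMA corrects background and gives both arrays the same distribution of probe signals, before these are summarized to a level per probe set. A change common to all genes is thus lost, and changes near background shrink. The table holds 53617 probe sets, of which 16098 had 1 gene in the platform annotation, 0 had several and 37519 had none; all 16098 gene identifiers matched RefSeq (GRCh38.p14). Where a gene had several probe sets, the brightest by mean was used. No scanner files or detection calls were used. Groups came from the treatment label.

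Members and lists were chosen with earlier results of these data known. Named besides the members were all KLF and SP genes with a probe set, and 3 genes nearest to KLF7. Of each other list, up to 3 genes in each direction past 1.5-fold were named (otherwise the 2 largest differences). Picked after values were seen were MAPK7, FKBP5, CTBP1, SIN3A, WWP1, CDK1, CCNB1 and overlapping genes. So were the 4 listed genes past 1.5-fold but under the floor (ATF3, SMAD3, FBXO32, MEF2C). The markers KRT7, KRT8, KRT18, KRT19, EPCAM, CEACAM5, CEACAM6, S100P, CLDN4, CLDN5 and CD14 were also picked after values were seen. So were the markers DCN, PECAM1, VWF, KDR and ERG. Promoter windows came from RefSeq. The windows printed were picked with the members' values known, and the motifs were revised after matches had been seen: an NF-kB motif, with a match in 1 window of KLF13 against 12.3% of all windows, was left out because its spelling needs degenerate letters, and AP-1 was written without them. The 10 alternatives were 3 level filters, the mean of all probe sets, loess (span 0.3), median centring, repeated quantile normalization, protein-coding genes alone, and counting sizes of 2-fold and of 0.32 on the log2 scale. The percentile among genes of a like level was added after the data were seen. Python 3.11.15, NumPy 2.4.6, pandas 2.3.3, statsmodels 0.14.6 and matplotlib 3.10.9 were used.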

Additional observations from a re-analysis of the deposited data

How the results depend on the processing

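KLF6 and KLF7 stayed at least 1.5-fold higher under all alternatives run, with differences from 1.06 to 1.08 and from 1.21 to 1.26, and 0 members were 1.5-fold lower in any. Each member has 1 probe set, so only loess, median centring and repeated quantile normalization could move these differences. The members' median ran from 0.13 to 0.17. KLF9 alone changed sign, at 0.03 after repeated quantile normalization. The filter at the 75th percentile left 7 members and the restriction to protein-coding genes left 8. Among all kept genes, the counts of 294 higher and 83 lower at 1.5-fold became 560 higher and 421 lower with no level filter (14884 genes), 137 and 30 with the filter at the 75th percentile (3721 genes), 71 and 6 at 2-fold, and 1005 and 616 at 0.32 on the log2 scale, and the lower count was 53 for protein-coding genes alone. KLF4 lay at the 17.9th percentile with no filter. No paired analysis was possible because each group has 1 array. With 1 array per group, the number of arrays limits the precision, and no replicate could be left out.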
